A study of Mus musculus with 3 samples.

Results

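The sensory, purinergic and voltage-gated ion channel genes of mouse cornea were taken from the gene symbols alone: the protein-coding genes of the TRP (Trpa, Trpc, Trpm, Trpv), Piezo, P2X, P2Y, ASIC, Kcn, Scn, Cacna1 and Hcn families. The symbol pattern matched 136 of 21760 genes in the table, of which 16787 were protein coding. RNA was sequenced from cornea in 3 libraries with 1 library per group. In the sham group the skin near the lacrimal gland was cut and the gland was spared. In the excision group the gland was taken out, which models tear-deficient dry eye. Mice of the PNU-282987 group got eyedrops of this activator of α7 nicotinic receptors 3 times a day. Strain, age, sampling time and pooling of corneas are not given in the labels, nor whether the mice given eyedrops had lost the gland.

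These families turn physical and chemical events at the ocular surface into ion flow. TRP channels respond to temperature, osmolarity and irritants, Piezo channels open when the membrane is stretched, P2X channels and P2Y receptors respond to ATP and other nucleotides that stressed cells release, and ASIC channels open in acid. Voltage-gated sodium, calcium and potassium channels and the Hcn channels shape action potentials in neurons and set the membrane potential of epithelial cells. The cornea is among the most densely innervated tissues, but the cell bodies of its sensory nerves lie in the trigeminal ganglion, outside the sampled tissue.

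Each group had 1 library, so the variation among animals is unknown and every ratio describes these libraries only, with no test. Ratios are of counts scaled by TMM factors with nothing added. Each carries a 95% exact (Clopper-Pearson) interval of the counts, which covers counting error only. Calls of higher or lower needed a ratio of 2-fold or more with an interval that did not include 1. Genes with at least 20 counts in any library, 14180 in all, were measured. Total counts were between 37692972 and 39616004 per library. The tissue markers that bear on the channel genes differed between libraries. The corneal epithelial keratin Krt12 had 1541851, 1135144 and 1634592 counts (sham first, then excision, then PNU-282987, the order used throughout). Lens markers summed to 607, 22.2 and 561 CPM (counts divided by the scaled library total, times 1e6) and corneal endothelial markers to 1366, 510 and 1120 CPM, so the excision library was the lowest for both. In bulk tissue, fewer cells of a type and less RNA per cell cannot be told apart.

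The P2Y receptors of nucleotides held both the most abundant member per length, P2ry2, and 2 of the members with higher counts in the excision library, P2ry14 and P2ry4. For these 3 genes the 250 bases before a transcription start are shown, from RefSeq on build GRCm38.p6, to let the proximal sequence be read beside the values. They are written in lower case with matches to searched motifs in capitals. The motifs were GAAA repeated after any 2 bases (the core of the interferon-stimulated response element), CACGTG (an E-box), TATAAA and GGGCGG (a GC box), each on both strands. Where a gene had several windows, the one with matches to the most of these motifs is shown, and the first by position among equals. No match says only that these letters are not in the window.
P2ry2 (chr7:101011999-101012248, minus strand): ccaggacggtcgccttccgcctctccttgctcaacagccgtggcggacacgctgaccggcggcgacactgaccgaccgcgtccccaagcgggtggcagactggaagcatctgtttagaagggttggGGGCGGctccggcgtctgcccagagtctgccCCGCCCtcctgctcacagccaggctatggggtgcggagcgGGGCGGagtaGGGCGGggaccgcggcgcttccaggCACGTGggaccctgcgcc
P2ry14 (chr3:59130763-59131012, minus strand): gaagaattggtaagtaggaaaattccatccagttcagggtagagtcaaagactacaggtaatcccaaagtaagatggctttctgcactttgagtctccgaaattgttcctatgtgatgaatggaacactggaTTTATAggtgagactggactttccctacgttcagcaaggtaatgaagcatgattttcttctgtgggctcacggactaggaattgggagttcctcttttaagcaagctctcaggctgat
P2ry4 (chrX:100594870-100595119, minus strand): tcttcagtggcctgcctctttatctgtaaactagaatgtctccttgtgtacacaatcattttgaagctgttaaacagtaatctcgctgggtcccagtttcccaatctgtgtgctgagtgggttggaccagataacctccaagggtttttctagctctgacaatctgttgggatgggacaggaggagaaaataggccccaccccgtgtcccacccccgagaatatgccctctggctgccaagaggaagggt
The P2ry2 window held 4 GC boxes and 1 E-box, with 71.2% G and C. The P2ry14 window shown held 1 TATAAA on its opposite strand and 42.8% G and C, while the other P2ry14 windows held none of the 4 motifs. The P2ry4 window held none of them either. The promoter table matched 42 of the 56 measured members, with 60 windows of 300 bases. The interferon motif was in 3.33% of these windows, all of Kcnc2, and in 3.44% of all 32851 windows of the table. An E-box was in 13.3% of member windows and 7.15% of all windows, TATAAA in 8.33% and 13.6%, and the GC box in 41.7% and 35.7%.

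Most channel genes were scarce in these corneas. Of the 136 members, 56 reached 20 counts in a library and 80 did not, and 31 had 3 counts or fewer in all 3 libraries. All members together made up 0.0792%, 0.0867% and 0.0674% of the counts in sham, excision and PNU-282987. Trpm3, P2ry2 and Piezo1 supplied 54.9% to 59.1% of that sum. Just inside the minimum was Kcne1 (10, 20 and 17 counts). Just outside it were Kcnq1 (3, 7 and 19) and Kcnj16 (0, 4 and 19). Of the 56 measured members, 42 had at least 20 counts in all 3 libraries, 6 in 2 and 8 in 1. Those 8 were measured only through the library where they were highest, so a difference was built into their selection.

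Levels of different genes were compared per kilobase of exons, using exon lengths of the GENCODE M21 annotation, since the authors' annotation is not given in the sources used here. P2ry2, a receptor for ATP and UTP on epithelial cells, was first with 39.6, 46.5 and 46.1 CPM per kb. Piezo1, the stretch-gated channel of many epithelia, followed with 7.73, 12.4 and 7.06 CPM per kb. Kcnk5, a background potassium channel sensitive to pH, had 7.45, 7.0 and 7.91 CPM per kb, Trpm3, a heat- and steroid-sensitive channel, had 7.66, 8.76 and 5.18, and Kcng3, a modifier subunit that does not form channels by itself, had 7.83, 7.63 and 5.33. The levels of Piezo1, Kcnk5, Trpm3 and Kcng3 overlapped between libraries, and their order changed when the longest transcript was taken as the length, which put Trpm3 before Piezo1. P2ry2 was first by either length.

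**Figure D1:**
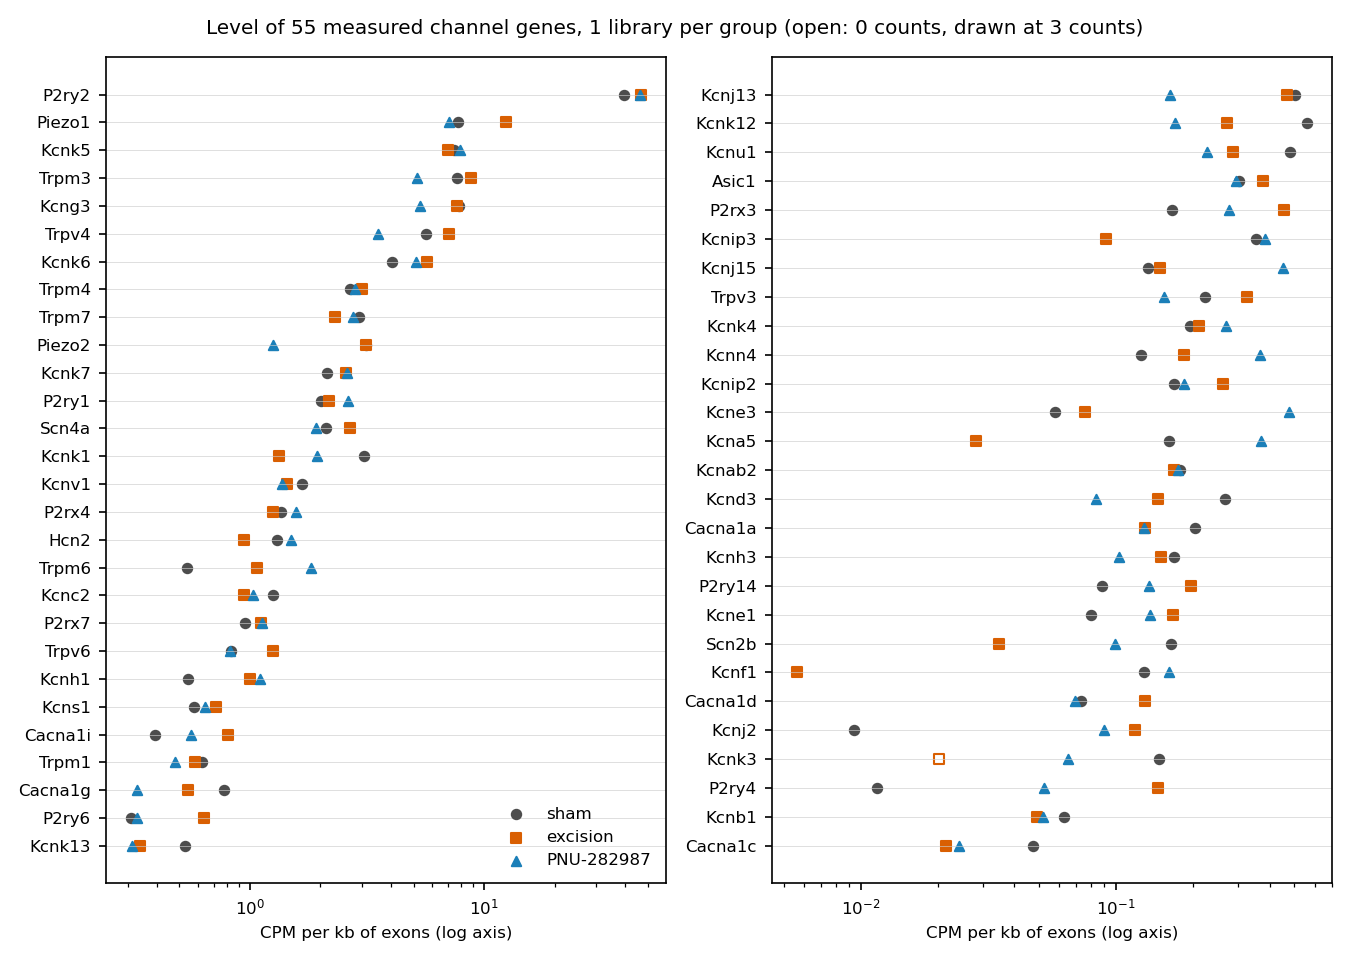
CPM per kilobase of exons (log axis) for 55 of the measured members, with the sham (circle), excision (square) and PNU-282987 (triangle) libraries as points and no error bars, since each group had 1 library. P2ry2 stood above all other members at 39.6 to 46.5 CPM per kb, and the open square marks Kcnk3, which had 0 counts in excision and is drawn at 3 counts.

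The channels that define corneal nociceptors and cold sensors as neurons were at or near the detection limit. Trpm8, the cold sensor of corneal nerves, had 0, 1 and 0 counts. Trpv1, the capsaicin receptor, had 1, 3 and 3 counts, Asic3, an acid sensor of sensory neurons, had 2, 3 and 1, and Scn9a, a sodium channel of nociceptors, had 1, 0 and 0. The mechano-gated potassium channel gene Kcnk2 had 4, 9 and 2 counts. No difference between libraries was detectable at this depth. A count of 0 allows up to 3 counts, or 0.0768, 0.0808 and 0.0773 CPM. The symbols Trpa1, Scn10a and Scn11a were absent from the deposited counts, so these genes could not be analysed here. Axon and neuron markers were low too, with a summed level of 2.95, 2.56 and 3.53 CPM over 11 genes, of which 3, 1 and 3 were at 0.

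P2rx3, Kcnk4 and Asic1 were among the sensory genes with measurable counts, with Piezo2, Trpv3, Trpv4 and Hcn2 described under their families. P2rx3, the ATP-gated channel of sensory neurons, had 18, 47 and 30 counts. The excision library was the highest, 2.75-fold above sham (95% interval 1.57 to 5.03), and PNU-282987 lay between them, 1.64-fold below excision (1.02 to 2.68). Exons of P2rx3 overlap Ssrp1 on the opposite strand over 1.83% of its exon length, and Ssrp1 had 2998, 3030 and 3616 counts, so that without a stated strand setting some reads could be shared. Kcnk4, a potassium channel opened by stretch and warmth, had 34, 35 and 47 counts, with 13.2% of its exon bases shared with Catsperz on the same strand. Asic1, the most widely expressed acid-sensing channel, had 68, 80 and 66 counts, and all 3 of its ratios had intervals that included equal levels.

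Across the 3 comparisons 27 of 56 measured members (48.2%) were called at least once and 29 never, beside 15.9% of all 14180 measured genes called at least once. In excision against sham 7 members were called higher and 8 lower, where 4.01% and 5.48% of all measured genes with a ratio were. PNU-282987 against excision gave 7 higher and 6 lower, beside 3.9% and 5.62% of all genes. Against sham, PNU-282987 gave 7 of each, beside 2.58% and 4.96%. Calls were common among all genes of few counts. For the 29 members with 20 to 99 counts in their highest library, 6 were higher and 7 lower in excision against sham (12.1% and 16.9% of all such genes). The same members gave 6 and 4 in PNU-282987 against excision (12% and 18.6%) and 4 and 4 against sham (8.74% and 18.4%). For the 27 members with at least 100 counts, 1 was higher and 1 lower in excision against sham (2.07% and 2.74% of all such genes). In PNU-282987 these were 1 and 2 against excision (1.96% and 2.51%) and 3 and 3 against sham (1.11% and 1.74%). With 20 counts required in both libraries the 3 comparisons gave 3 and 2 (2.26% and 2.9%), 1 and 3 (2.0% and 3.1%) and 4 and 4 (1.25% and 2.42%). Over the members the median log2 ratio of excision to sham was 0.14. That of PNU-282987 was -0.12 to excision and -0.01 to sham, and all genes had medians from 0.00 to 0.01.

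**Figure D2:**
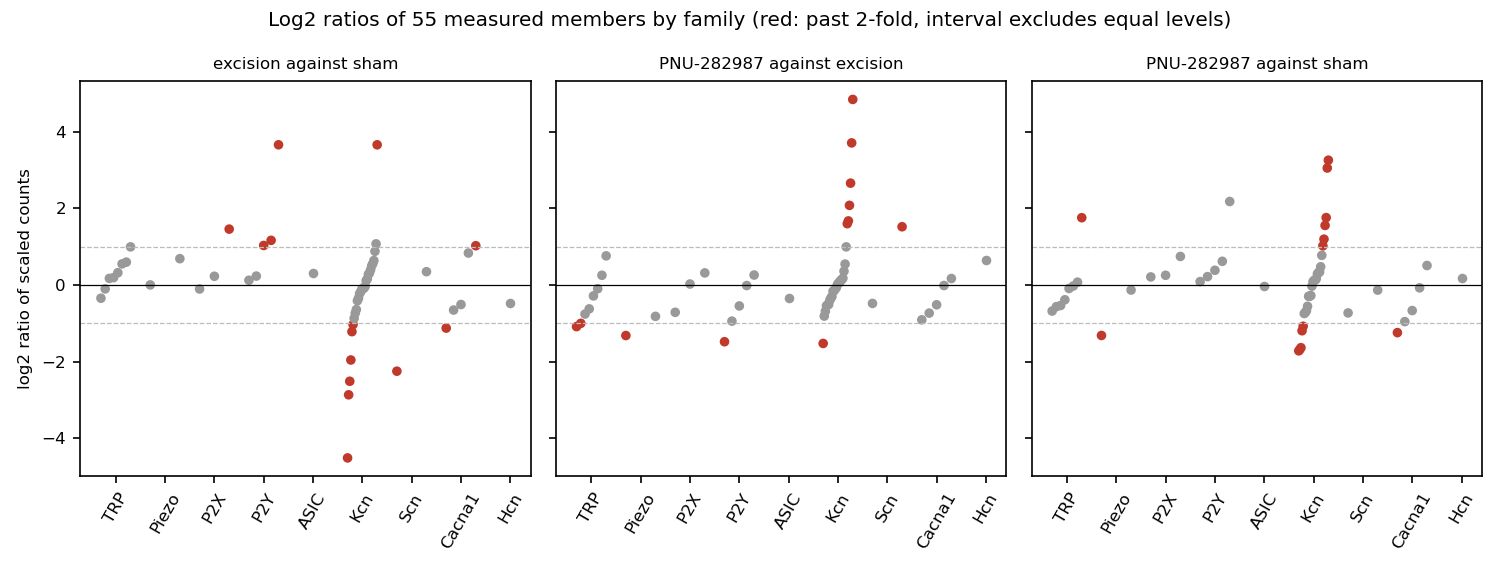
Log2 ratio of scaled counts for 55 of the measured members, grouped by family on the horizontal axis, in the 3 comparisons. Each point is 1 gene, dashes mark 2-fold, and red points are called. The median log2 ratio of all members stayed within 0.14 of 0, and the Kcn family held the lowest ratio in each panel and the highest in both panels of PNU-282987, with P2ry4 level with Kcnj2 at the top for excision against sham.

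Piezo2 was the abundant member with the clearest difference. It encodes the stretch-gated channel that serves touch in sensory nerve endings and Merkel cells. Piezo2 (gene ID 667742) had 2099, 1998 and 838 counts. Sham and excision were level at a ratio of 1.0 (0.941 to 1.07), and the PNU-282987 library was 2.49-fold lower than either, with intervals of 2.30 to 2.70 against sham and 2.30 to 2.71 against excision. Piezo1 (gene ID 234839) took another course, with 3000, 4591 and 2724 counts. Excision was highest, 1.61-fold above sham (1.54 to 1.69) and 1.76-fold above PNU-282987 (1.68 to 1.85), under the 2-fold minimum. The exons of Piezo1 overlap those of Ctu2 on the opposite strand over 24.6% of their length, and Ctu2 had 541, 592 and 531 counts. Only 3 of 11 neuron markers were measured, and none of the 3 was called lower in PNU-282987. Gap43 had 54, 46 and 43 counts, the fewest in PNU-282987, and was not called. Uchl1 had 41, 17 and 50 and was higher in PNU-282987 than in excision. Snap25 had 3, 5 and 30 and was higher in PNU-282987 than in both other libraries. Snap25 reached the minimum only in PNU-282987, so a lower call there was not possible. The part of nerve fibres in the Piezo2 counts was not tested. Schwann cell markers summed to 195, 226 and 243 CPM, with none of 5 measured genes called in PNU-282987. Their median log2 ratio went the other way than the sum, with PNU-282987 at -0.15 to excision and -0.46 to sham.

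Among TRP channels 8 of 18 members were measured. None was called in excision against sham, 2 were lower in PNU-282987 than in excision, and 1 was higher in PNU-282987 than in sham. Of all genes 4.01% were higher and 5.48% lower in excision against sham. For PNU-282987, 5.62% were lower than in excision and 2.58% higher than in sham. Trpm6 (gene ID 225997), a magnesium channel fused to a kinase that is known from kidney and intestine, had 162, 307 and 544 counts. PNU-282987 was 3.38-fold above sham (2.83 to 4.05), and excision lay between, 1.99-fold above sham (1.64 to 2.43) and 1.69-fold below PNU-282987 (1.47 to 1.95). Its ubiquitous relative Trpm7 had 1296, 970 and 1210 counts, within 1.27-fold over the 3 libraries, and Trpm4, a calcium-activated cation channel, had 1130, 1210 and 1183, within 1.13-fold.

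Trpv4, Trpv3, Trpm3 and Trpm1 had their lowest levels in the PNU-282987 library. Trpv4 (gene ID 63873), an osmosensitive channel of corneal epithelium and endothelium, had 899, 1067 and 558 counts, 2.0-fold lower in PNU-282987 than in excision (1.80 to 2.22) and 1.60-fold lower than in sham (1.44 to 1.78). With DESeq2 size factors the Trpv4 ratio to excision was 0.502, just short of the minimum. Trpv3 (gene ID 246788), a warmth sensor of keratinocytes, had 51, 71 and 35 counts and was 2.12-fold lower in PNU-282987 than in excision (1.40 to 3.28), while its interval against sham included equal levels (1.45-fold lower, 0.924 to 2.30). Trpm3 (gene ID 226025) had 7314, 7947 and 4915 counts, 1.69-fold lower than in excision (1.63 to 1.75) and 1.48-fold lower than in sham (1.43 to 1.53), which was under the minimum in both. Trpm1, known from melanocytes and the retina, had 360, 319 and 274 counts beside 10.8, 8.30 and 6.59 CPM for pigment cell markers, and the part of those cells in it was not tested. Trpv6, an epithelial calcium channel, was highest in excision at 128, 184 and 125 counts. TRP genes that were not measured included Trpv2 (7, 5 and 5 counts), Trpc1 (11, 8 and 9) and Trpv5 (4, 3 and 2).

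Nucleotide receptors were the family with the most abundant epithelial member and with small differences in its major genes. P2ry2 had 6075, 6785 and 7028 counts, with excision 1.18-fold above sham (1.13 to 1.22). P2ry1, an ADP receptor, had 336, 348 and 436 counts. Among the ATP-gated channels P2rx4, found in epithelia and myeloid cells, had 371, 328 and 427 counts, and P2rx7, which opens at high ATP and drives inflammasome activation in macrophages, had 221, 246 and 262. All 4 stayed within 1.5-fold over the 3 libraries.

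Of 5 measured P2Y members, 3 were called higher in excision than in sham and none lower, where 4.01% of all genes, and 12.1% of those with 20 to 99 counts, were higher. With 20 counts required in both libraries it was 2 of 4, beside 2.26% of all such genes. The 3 were the scarcer ones. P2ry14 (gene ID 140795), the receptor for UDP-glucose, had 38, 81 and 58 counts, 2.24-fold higher in excision (1.51 to 3.39). P2ry6 (gene ID 233571), the UDP receptor of macrophages and epithelia, had 35, 68 and 37 counts, 2.04-fold higher (1.34 to 3.17), which was 1.94-fold when counts were scaled to totals. P2ry4, a UTP receptor of epithelia, had 2, 24 and 9 counts, 12.6-fold higher on 2 counts in sham (3.13 to 110), and it reached the minimum only in excision, so that a difference was built into its selection. In PNU-282987 P2ry6 was close to sham, and P2ry4 was 2.79-fold lower than in excision (1.25 to 6.82). Macrophage markers were also highest in excision, at 29.7, 62.7 and 42.2 CPM, with 6 of 9 measured genes higher than in sham and none lower. T and NK cell markers stood at 0.230, 5.77 and 0.824 CPM and interferon-stimulated markers at 423, 2587 and 303 CPM. All measured genes of both lists, 4 and 10, were higher in excision than in sham. No T or NK gene reached the minimum in sham, so a difference was built into the selection of those 4. The part of such cells or of the interferon response in the P2Y counts was not tested. P2ry12, known from microglia and platelets, and P2ry13 were not measured, with 2, 1 and 0 counts and with 10, 0 and 0.

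Release and clearance of extracellular nucleotides depend on other genes, which are no members. Of 12 measured genes of ATP release, breakdown and adenosine reception none was called in excision against sham. Of all genes 4.01% were higher and 5.48% lower. In PNU-282987 against sham 1 was higher and 1 lower, beside 2.58% and 4.96% of all genes. Against excision 1 was lower in PNU-282987, beside 5.62%. Nt5e, the ectoenzyme that makes adenosine from AMP, had 1802, 1905 and 3963 counts and was 2.21-fold higher in PNU-282987 than in sham (2.09 to 2.34). Enpp1, which cleaves ATP to AMP and pyrophosphate, had 53, 43 and 21 counts and was 2.51-fold lower (1.49 to 4.38).

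Potassium channels made up 76 of the members, of which 29 were measured, 19 of them with at least 20 counts in every library. Several of the more abundant ones were not called in any comparison. Kcnk5 had 990, 885 and 1046 counts, Kcnk6, a lysosomal and epithelial two-pore channel, had 656, 882 and 825, and Kcng3 had 1026, 951 and 694. The modifier subunit Kcnv1 had 300, 244 and 243 counts, and Kcnc2, a fast delayed rectifier, had 351, 251 and 285. All 5 stayed within 1.5-fold over the 3 libraries. Of these, Kcnk6 was 1.41-fold above sham in excision (1.28 to 1.57), and Kcng3 was 1.47-fold below sham in PNU-282987 (1.33 to 1.62). The Kcn members with at least 100 counts that were called in some comparison were Kcnk1, Kcnh1, Kcnj15 and Kcnd3.

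A group of potassium channel genes was highest in the PNU-282987 library. Kcnj15 (gene ID 16516), an inward rectifier of secretory epithelia, had 33, 35 and 111 counts, 3.38-fold above sham (2.28 to 5.15) and 3.03-fold above excision (2.06 to 4.57). Kcnn4 (gene ID 16534), the calcium-activated potassium channel of gland acini and lymphocytes, had 25, 35 and 73 counts, 2.94-fold above sham (1.84 to 4.83). Kcne3, the accessory subunit that holds Kcnq1 channels open in chloride-secreting epithelia, had 4, 5 and 33 counts, 8.30-fold above sham (2.95 to 32.2), and it reached the minimum only in PNU-282987. Its partner Kcnq1 and the inward rectifier Kcnj16, neither of them measured, had 3, 7 and 19 and 0, 4 and 19 counts. Kcna5, a delayed rectifier, had 18, 3 and 41 counts, 2.29-fold above sham (1.29 to 4.24) and 13.1-fold above excision (4.17 to 66.0). Like Kcne3 it reached the minimum only in PNU-282987, so that a difference was built into the selection of both. For all genes named here but Kcna5 the sham and excision libraries were alike within counting error.

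Gland and goblet cell transcripts were high in the same library. Of 12 measured markers of conjunctival goblet cells and lacrimal or Harderian gland, 10 were higher in PNU-282987 than in sham and none was lower. The shares of all genes were 2.58% and 4.96%. Gp2, a glycoprotein of secretory epithelia, had 5, 4 and 3801 counts, Muc5b, a gel-forming mucin, had 1, 0 and 676, and Spdef, the goblet cell transcription factor, had 22, 4 and 94. Gp2, Muc5b and others of the list reached the minimum only in PNU-282987, so that a difference was built into their selection. The part of gland and goblet cells in the counts of Kcnj15, Kcnn4, Kcne3 and Trpm6 was not tested. The calcium-activated chloride channel gene Ano1, which serves in gland acini and is no member, had 57, 25 and 64 counts. In PNU-282987 Ano1 was 2.45-fold above excision (1.52 to 4.06), and its interval against sham included equal levels (1.13-fold, 0.778 to 1.64).

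Other Kcn genes differed in other orders. Kcnh1, a slowly activating voltage-gated channel, had 155, 271 and 313 counts, higher than sham by 1.84-fold in excision (1.5 to 2.26). PNU-282987 was 2.03-fold above sham (1.67 to 2.48), or 1.92-fold when scaled to totals. Kcnj2, the classical inward rectifier of muscle, macrophages and endothelium, had 2, 24 and 19 counts, above sham by 12.6-fold in excision (3.13 to 110) and by 9.55-fold in the eyedrop library (2.30 to 84.6). Kcnj2 reached the minimum only in excision, so that a difference was built into its selection.

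Another set had its lowest counts in the excision library. Kcnip3 (gene ID 56461), which encodes a calcium-binding partner of A-type potassium channels that also acts as a transcriptional repressor, had 49, 12 and 53 counts. Excision was 3.88-fold below sham (2.03 to 8.02) and 4.22-fold below PNU-282987 (2.23 to 8.68), and sham and PNU-282987 did not differ beyond counting error. Kcnf1, a silent modifier subunit, had 24, 1 and 30 counts, 22.8-fold lower in excision than in sham on 1 count (3.72 to 938). Kcnk3, an acid-sensitive background channel, had 23, 0 and 10 counts. With 3 counts per library as the floor, excision was 7.29-fold lower than sham, and the interval of the counts began at 5.46-fold. PNU-282987 was 2.29-fold below sham for Kcnk3 (1.05 to 5.38). Scn2b, a sodium channel β subunit, had 30, 6 and 18 counts, 4.75-fold lower in excision than in sham (1.95 to 14), and Kcna5 was 5.70-fold lower (1.66 to 30.2). Kcnk1 (gene ID 16525), a two-pore background channel, had the most counts of this set, 269, 110 and 168, and was 2.32-fold lower in excision than in sham (1.86 to 2.93). In PNU-282987 Kcnk1 was 1.59-fold below sham (1.31 to 1.94). Kcnip3, Kcnf1 and Kcna5 were highest in PNU-282987, and Kcnk3, Scn2b and Kcnk1 in sham. A difference was built into the selection of Kcnk3 and Scn2b, which reached the minimum only in sham, and of Kcna5.

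Lens, retina and corneal endothelium markers were lowest in the excision library too. Other lists were also lowest there, among them neutrophil markers at 35.7, 4.93 and 20.3 CPM and stromal markers at 1926, 1298 and 1412 CPM. All 12 measured lens markers, 7 of 8 retina markers and 9 of 10 endothelial markers were lower in excision than in sham, and retina markers summed to 21.5, 7.41 and 33.7 CPM. The lens crystallin Cryaa had 9525, 175 and 8774 counts, and the lens genes Mip and Gja3 were at 0 in excision. A gene at 0 in excision could reach the minimum only through another library, so a difference was built into its selection. Whether the counts of Kcnip3, Kcnf1, Kcnk3, Scn2b, Kcna5 and Kcnk1 came with any of these tissues or cells was not tested. The epithelial sodium channel genes Scnn1b and Scnn1g, no members, also had their lowest counts in excision, at 114, 20 and 57 and at 38, 12 and 20. The more abundant subunit gene Scnn1a had 1523, 2255 and 1884 counts and was highest in excision, 1.56-fold above sham (1.46 to 1.66).

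**Figure D3:**
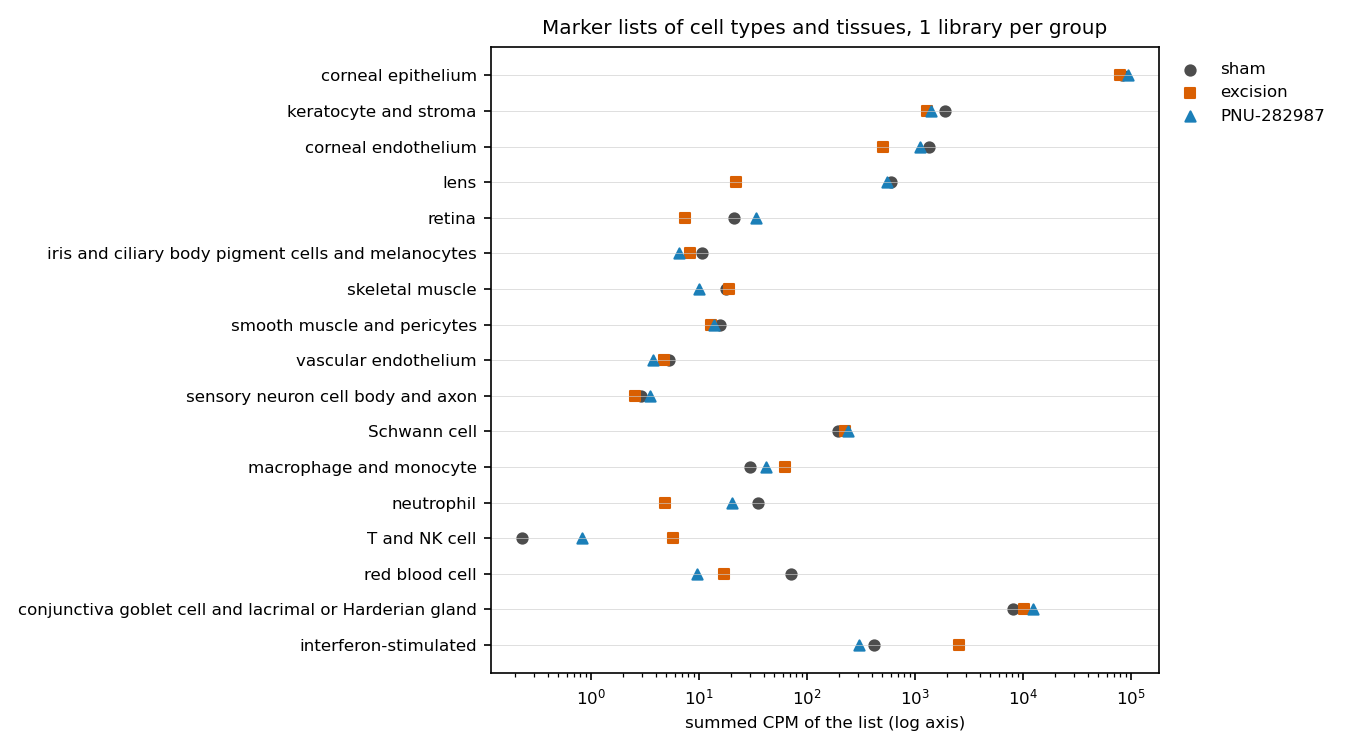
Summed CPM (log axis) of 17 marker lists of cell types, tissues and the interferon response in the sham (circle), excision (square) and PNU-282987 (triangle) libraries, without error bars. Lens markers stood at 22.2 CPM in excision and 607 in sham, macrophage markers were highest in excision at 62.7 CPM, and most of the gland list's sum came from Krt13 and Aqp5.

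Genes with their highest level in sham formed the remaining pattern, and Kcnd3 had the largest ratio among those with at least 50 counts. Kcnd3 (gene ID 56543), an A-type potassium channel of neurons and heart, had 100, 52 and 31 counts, 3.21-fold lower in PNU-282987 than in sham (2.12 to 4.97) and 1.83-fold lower in excision (1.29 to 2.61). Kcnk12, a silent or weak two-pore channel, had 43, 20 and 13 counts, below sham by 2.04-fold in excision (1.18 to 3.67) and by 3.29-fold in the eyedrop library (1.74 to 6.67). Kcnu1, a pH-sensitive potassium channel known from sperm, had 70, 40 and 33 counts, 2.11-fold lower in PNU-282987 than in sham (1.38 to 3.29). Kcnj13, an inward rectifier of pigment epithelium, had 25, 22 and 8 counts, but 49.1% of its exon bases overlap Gigyf2 on the opposite strand, which had 1896, 1894 and 1970 counts, so its value is uncertain. Several marker lists were also highest in sham. Among them were stromal markers at 1926, 1298 and 1412 CPM and red blood cell markers at 71.8, 17.2 and 9.61 CPM. Neutrophil markers stood at 35.7, 4.93 and 20.3 CPM and pigment cell markers at 10.8, 8.30 and 6.59 CPM. The lens and corneal endothelial sums were highest in sham too, and the part of any of these tissues or cells was not tested.

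**Figure D4:**
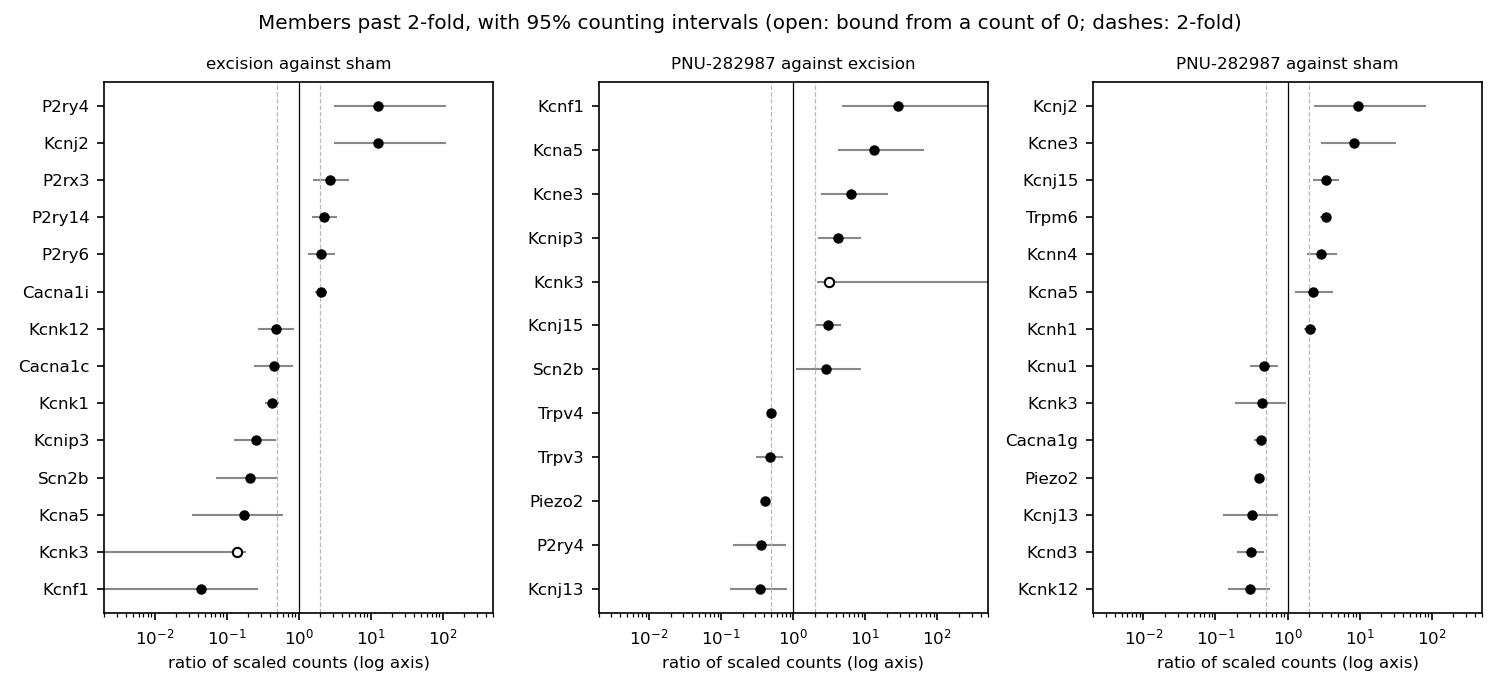
Ratios of scaled counts (log axis) with 95% counting intervals for members called in each comparison, with 14, 12 and 14 genes drawn. Dashes mark 2-fold, and the open circles of Kcnk3 are bounds set by its 0 counts in excision. The intervals of Kcnk3 and Kcnf1 in the panels with excision run past the axis. Intervals were narrow for Piezo2 (2.30 to 2.70 lower against sham) and Trpm6 (2.83 to 4.05 higher) and wide for Kcnf1 and P2ry4.

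Voltage-gated calcium channels, which admit calcium on depolarization, had 5 of 9 members measured. Of the low-threshold T-type genes, Cacna1i was highest in excision and Cacna1g in sham. Cacna1i (gene ID 239556) had 152, 294 and 215 counts, 2.03-fold higher in excision than in sham (1.67 to 2.49), or 1.94-fold when scaled to totals. Cacna1g (gene ID 12291) had 307, 205 and 129 counts, 2.37-fold lower in PNU-282987 than in sham (1.92 to 2.93) and 1.42-fold lower in excision than in sham (1.19 to 1.71). Both were lower in PNU-282987 than in excision without reaching 2-fold, Cacna1i by 1.43-fold (1.20 to 1.71) and Cacna1g by 1.66-fold (1.33 to 2.09). The remaining T-type gene, Cacna1h, had 1, 1 and 0 counts. Of the L-type genes Cacna1c had 39, 17 and 20 counts, 2.18-fold lower in excision than in sham (1.21 to 4.11), and Cacna1d had 36, 61 and 34, with 4.67% of its exon bases over Chdh on the opposite strand. Cacna1a, the channel of presynaptic terminals, had 91, 55 and 57 counts. The skeletal muscle gene Cacna1s had 0, 8 and 0.

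Calcium channel accessory subunits, which set the surface level and gating of the Cacna1 pores, were called lower in 2 of 7 measured cases in excision against sham and higher in none, beside 5.48% and 4.01% of all genes. Cacng7 had 97, 25 and 68 counts, 3.69-fold lower (2.36 to 5.98), and Cacnb2 had 66, 28 and 45, 2.24-fold lower (1.42 to 3.62). Of 15 measured genes of store-operated entry and intracellular calcium release, 1 was lower, the IP3 receptor gene Itpr1 with 472, 177 and 384 counts (2.53-fold, 2.13 to 3.03), and 1 was higher, the ryanodine receptor gene Ryr2 with 14, 32 and 24. Cacng7 and Itpr1 were lowest in the library with the least lens and retina transcript, and the part of those tissues was not tested.

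Voltage-gated sodium channels were nearly absent apart from Scn4a. Only 2 of 11 members were measured, and 5 had 3 counts or fewer in every library. Scn4a (gene ID 110880), the skeletal muscle isoform, had 578, 699 and 524 counts, within 1.40-fold over the 3 libraries. Defining skeletal muscle genes were at or near 0, with Ckm at 1, 1 and 0 counts, Acta1 at 11, 0 and 4 and Ttn at 1, 1 and 1, although the fast troponin gene Tnni2 had 588, 623 and 313. The neuronal genes Scn1a and Scn2a had 0, 0 and 6 and 1, 1 and 1 counts. Of 5 measured sodium channel partners and axonal anchors 1 was lower in excision than in sham, Fgf11 with 118, 46 and 48 counts (2.44-fold, 1.72 to 3.51), and 1 higher, the axonal spectrin gene Sptbn4 with 4, 23 and 1. Of all genes 5.48% were lower and 4.01% higher, and Sptbn4 reached the minimum only in excision.

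Hcn2 was the measured gene of the 4 pacemaker channels, which open on hyperpolarization. It had 163, 112 and 185 counts, lowest in excision, 1.38-fold below sham (1.08 to 1.78) and 1.58-fold below PNU-282987 (1.24 to 2.01), under the 2-fold minimum. Other mechanosensitive channel genes gave 1 of 10 measured genes higher in excision than in sham, Tmc7 with 11, 26 and 17 counts, and 1 lower, Tmc5 with 20, 8 and 18. Of all genes 4.01% were higher and 5.48% lower, and of those with 20 to 99 counts 12.1% and 16.9%. Tmc7 reached the minimum only in excision and Tmc5 only in sham. In both comparisons of PNU-282987 none of the 10 was called.

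Levels across the 3 libraries differed more among channel genes than among measured genes as a whole, which had more counts. Of the 56 measured members 19 (33.9%) stayed within 1.5-fold over the 3 libraries, against 67.9% of all 14180 measured genes, and the median of the largest ratio between any 2 libraries was 1.94 and 1.32. The excision library was the highest for 22 members (39.3%, beside 35.2% of all genes), sham for 19 (33.9% beside 30.4%) and PNU-282987 for 15 (26.8% beside 34.4%). Sham was the lowest for 22 members (39.3% beside 30.2%), PNU-282987 for 20 (35.7% beside 33.5%) and excision for 14 (25% beside 36.3%).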

How the data were processed

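RNA of mouse cornea was sequenced in 3 libraries, 1 per group. The deposited values were raw counts per gene in a single table, with no normalization. HTSeq and R 3.2.0 appear in the submitters' processing notes. Aligner, genome build, annotation and strand setting: not given in the sources used here. Columns were matched to samples by title.

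TMM scaling (edgeR 4.0.16, R 4.3.3) gave sham a factor of 1.04, excision 0.985 and PNU-282987 0.980. SciPy 1.17.1 supplied the exact intervals, pandas 2.3.3 the tables and matplotlib 3.10.9 the plots, all under Python 3.11.15. A count of 0 entered at a floor of 3 counts per library, and no ratio was given where both libraries had 3 or fewer. No molecular identifiers are named in the labels, and the intervals treat each read as if it were its own molecule. The scheme was tested on simulated data with counting error only, for genes with at least 20 counts in sham. That test cannot show how the calls would fare under variation among animals or dissections. Exon lengths and overlaps came from GENCODE M21, matched by symbol.

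Members, gene lists and the rule for named genes were chosen with earlier results of these data known. By that rule any member may be named, and full values went to called members with at least 50 counts, up to 10 per direction, to the 3 highest of each family and to a list of sensory genes. Called members of fewer counts were described as well, and a few genes counted in the totals are not reported here by name or drawn. Alternatives were other scalings, including DESeq2 1.42.0 size factors, other count minimums and a 1.5-fold minimum.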

Additional observations from a re-analysis of the deposited data

How the results depend on the processing

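No paired analysis was possible because each group had 1 library. Over the alternatives run, the members' median log2 ratio lay between 0.07 and 0.16 in excision against sham, between -0.15 and -0.07 in PNU-282987 against excision and between -0.09 and 0.00 in PNU-282987 against sham. Counts of called members kept within 1.5 times of the reported ones when counts were scaled to totals or by DESeq2 size factors, with Cacna1i, P2ry6, Kcnh1 and Trpv4 falling just under 2-fold in 1 of these and Kcnn4 (against excision) and Cacna1c (against sham) passing it, and no called ratio changed direction. Counts moved with the count minimum, because few members have many reads. Without a minimum the lower calls in excision against sham numbered 13, the higher calls in PNU-282987 against excision 15, and PNU-282987 against sham gave 17 higher and 11 lower. At 100 counts these were 1 higher and 1 lower, 1 higher and 2 lower, and 3 higher and 3 lower in the 3 comparisons. With a mean of 20 counts over the libraries the first 2 comparisons gave 4 higher and 5 lower and 3 higher and 3 lower. With at least 20 counts in both libraries compared, an alternative chosen after seeing the data, the 3 comparisons gave 3 higher and 2 lower, 1 higher and 3 lower, and 4 higher and 4 lower. At a 1.5-fold minimum 12 were higher in excision against sham, 14 were lower in PNU-282987 against excision and 12 lower in PNU-282987 against sham. Leaving out members that overlap another gene by at least 10% of their exon bases, also chosen after seeing the data, removed Kcnj13 from both comparisons of PNU-282987 and no other call. Intervals of genes under 20 counts are wide, and such genes were not called in the report.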
